A study of Mus musculus with 6 samples.

Results

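The miR-466, miR-467, miR-669 and miR-297 families are rodent microRNAs, most of them encoded in one intron of the gene Sfmbt2, and they were compared here between sham-operated and ischemic mouse brain. All names in the deposited tables that begin with miR-466, miR-467, miR-669 or miR-297 were taken, without a filter on abundance, which gave 42 of 622 mature miRNA names. Of these, 18 were miR-466 names, 8 miR-467, 13 miR-669 and 3 miR-297. The brains came from C57BL/6J mice, an inbred strain. The sham group (libraries Sham 3, 6 and 7) had a sham operation, with treatment given as none, and the group labelled GCI (libraries 1, 2 and 3) had both carotid arteries ligated for 20 minutes and then reperfused. The labels give neither age nor reperfusion time nor brain region, and they do not say that each library is a separate animal, so that p-values reflect library-to-library spread, which may be technical.

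The 6 libraries held 1423905 to 2023475 counts with 1 row per name, and 39 to 42 of the 42 names had at least 1 count in each. Of 5 markers of brain tissue, all had counts, with miR-9-5p at 60905 to 82189 CPM and miR-124-3p at 12089 to 19965 CPM, where CPM are counts scaled to a common library size. GCI library 2 stood apart from its group over the whole table: by chi-square per degree of freedom it differed from GCI libraries 1 and 3 by 505 and 357, against 180.0 between those and at most 56.4 between sham libraries. Without it, 100 of 456 tested miRNAs passed an adjusted p of 0.05 (edgeR, Benjamini-Hochberg), against 10 of 440 with all 6 libraries.

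A microRNA is cut from a hairpin precursor that can release a product from either arm, named 5p and 3p, and its bases 2 to 8, the seed, pair with target messenger RNAs. Sfmbt2 encodes a Polycomb-group protein and is an imprinted gene expressed from the paternal copy in mouse extraembryonic tissues. Its intronic miRNA cluster is best known from placenta and embryonic stem cells, and its many near-identical hairpins arose by repeated duplication. Reads from such copies cannot be assigned to one hairpin.

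In GENCODE vM21 on GRCm38, 71 hairpins of the 4 families lie within Sfmbt2 (chromosome 2, 10370510 to 10595253, plus strand), on the same strand as the gene, from 10466663 to 10518279. None of the 71 overlaps an annotated exon of Sfmbt2. All 71 lie in a single intron, numbered 10 in a coding transcript, which runs from 10461473 to 10523944. They comprise 23 hairpins of miR-466, 14 of miR-467, 29 of miR-669 and 5 of miR-297. The series miR-467, miR-466, miR-669 recurs 11 times along the intron, with a median step of 2454.5 bp from one such triplet to the next. Another 10 hairpins with these family names lie elsewhere in the genome. Since no source names the build behind the counts, positions rest on matching names alone.

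**Figure D1:**
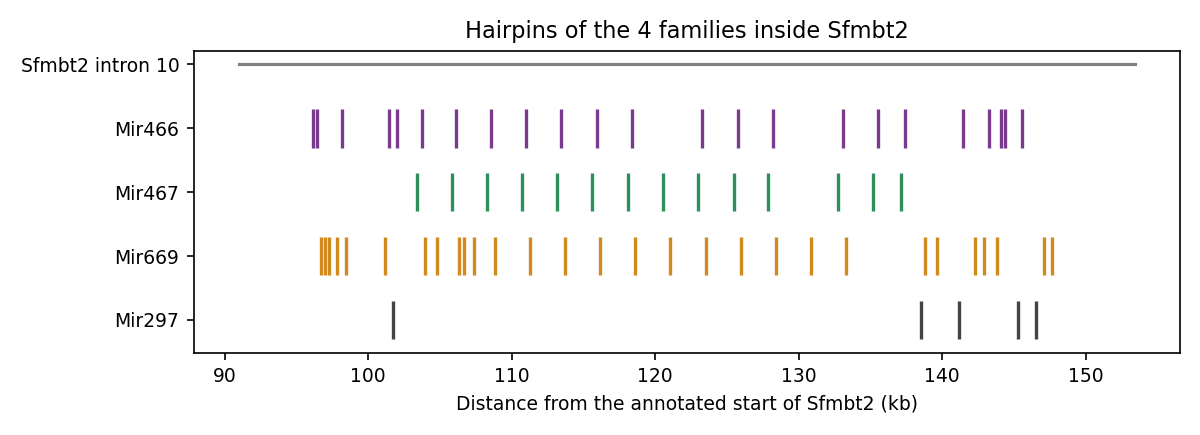
Positions of the 71 hairpins inside Sfmbt2, as distance in kb from the annotated start of the gene. Each vertical line is a hairpin, the 4 rows are the 4 families, and the grey bar at the top is intron 10. The miR-466, miR-467 and miR-669 hairpins recur at a regular spacing through the middle of the intron, while 1 miR-297 hairpin lies near the start of the cluster and 4 near its end.

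The label of the group as an Sfmbt2 cluster held for most members but not for the most abundant one. By name, 37 of the 42 names have hairpins inside Sfmbt2 only. miR-297a-3p and miR-466f-3p have 3 of their 4 hairpins there, and miR-466i-5p, miR-466i-3p and miR-466q have their hairpins elsewhere. Mir466i (chromosome 13, 17747473 to 17747593, plus strand) lies opposite to an intron of Cdk13, which encodes a cyclin-dependent kinase. Mir466q (chromosome 3, 28419943 to 28420018, plus strand) lies in an intron of Tnik, which encodes a kinase, on its strand. Mature sequences were matched for 2 of the 42 members, both encoded outside Sfmbt2. They are shown for the repeats that these 2 carry, with the seed in capitals (RefSeq, GRCm38.p6).
miR-466i-3p: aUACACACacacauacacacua
miR-466q: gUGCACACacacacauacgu
The first is at chr13:17747552-17747573 and the second at chr3:28419988-28420007, both on the plus strand. They hold alternating C and A over runs of 11 and 12 bases, and their seeds are not the same.

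The family was a minor part of brain miRNA content. To avoid counting the same reads several times, names of one arm whose counts agreed within 5% or 1 count in every library were treated as 1 entry. There were 6 such sets holding 16 names, and 32 entries remained. In Sham libraries 3, 6 and 7 the family took 0.0499%, 0.0463% and 0.0400% of counts, and in GCI libraries 1, 2 and 3 it took 0.0318%, 0.0459% and 0.0382%. The 95% Wilson intervals of these shares, which cover counting error only, ranged from 0.0291% at the lowest bound to 0.0535% at the highest. The most abundant member ranked 220 of 622 names by mean level. The summed level was 493, 451 and 403 CPM in the sham libraries and 332, 465.6 and 373 CPM in the GCI libraries, so that the groups overlapped. Group means were 449 ± 45.2 and 390.2 ± 68.4 CPM (SD, n = 3 each), a ratio of 0.869. In bulk tissue, fewer cells of a type and less RNA per cell cannot be told apart.

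The part of that sum with a hairpin in Sfmbt2 differed little between the groups. These 29 entries summed to 344, 301 and 296 CPM in sham and to 281, 309 and 323 CPM in GCI libraries, in the order just given. The means were 314 ± 26.4 and 304 ± 21.3 CPM (SD, n = 3 each), a ratio of 0.970 that lay within the spread of either group. The 3 entries with no hairpin in Sfmbt2 summed to 149, 149.9 and 106 CPM in the sham libraries. In the GCI libraries they summed to 50.9, 156 and 50.2 CPM, with libraries 1 and 3 below all sham values and library 2 above them. No test was made on these sums, because their members were chosen with earlier results of these data known.

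**Figure D2:**
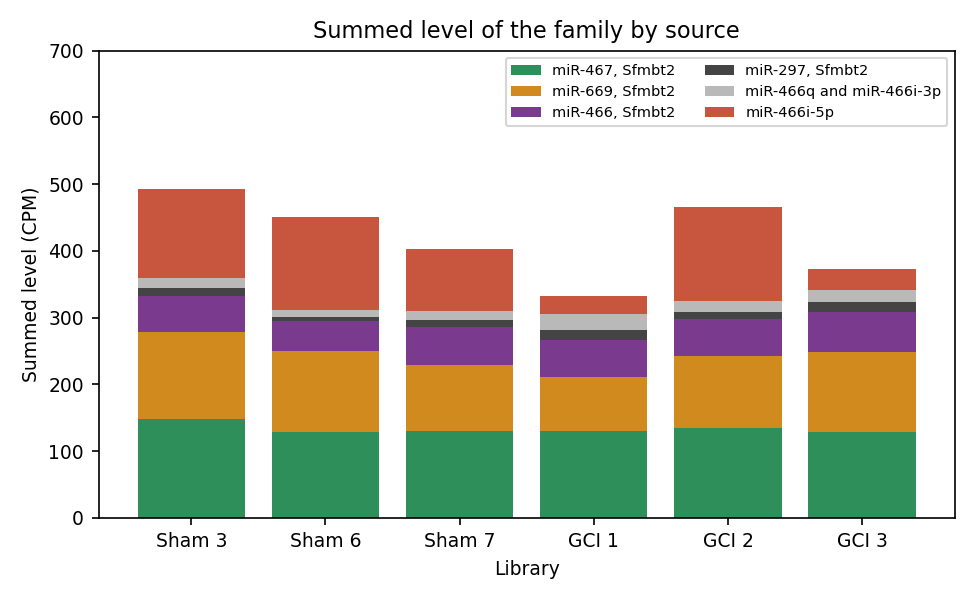
Summed level of the family in CPM (vertical axis) in each of the 6 libraries, stacked by source, with names of near-equal counts counted once. The layers with a hairpin in Sfmbt2 (miR-297 and miR-466 there include names with 1 further hairpin elsewhere) reach 281 to 344 CPM, while the miR-466i-5p layer is 26.1 and 31.4 CPM in GCI libraries 1 and 3 and 93.2 to 140.2 CPM in the other 4.

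miR-466i-5p, encoded opposite to Cdk13, had the highest mean level of the family and the largest SD in CPM among GCI libraries. Sham libraries 3, 6 and 7 held 223, 204 and 162 of its reads, and GCI libraries 1, 2 and 3 held 39, 225 and 65. The exact 95% Poisson intervals of the GCI counts, which cover counting error only, were 27.7 to 53.3, 197 to 256 and 50.2 to 82.8. Scaled to depth, it stood at 134, 139.6 and 93.2 CPM in sham brain and at 26.1, 140.2 and 31.4 CPM after ischemia-reperfusion. GCI libraries 1 and 3 thus lay below every sham library. GCI library 2 lay just above the highest of them, at 140.2 against 139.6 CPM, a gap smaller than its counting error. It made up 27.2%, 31.0% and 23.1% of the family's counts in the sham libraries and 7.86%, 30.1% and 8.41% in the GCI libraries.

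The group means of miR-466i-5p were 122 ± 25.3 and 65.9 ± 64.4 CPM (SD, n = 3 each). At −0.89 ± 0.56 (SE), its log2 fold change missed the threshold of 0.05 (edgeR quasi-likelihood fit, Benjamini-Hochberg adjusted p = 0.415 over 440 miRNAs). The two-sided exact permutation test gave p = 0.4, where 3 against 3 libraries allow no p below 0.1. Without GCI library 2 the log2 fold change was −2.08 ± 0.25 and passed (adjusted p = 0.00275, edgeR, Benjamini-Hochberg), as did 21.9% of all miRNAs tested in that fit. Without GCI library 1 it was −0.52, and without GCI library 3 it was −0.50. Over 17 alternatives its adjusted p ranged from 0.00275 to 0.739. Epithelial and pituitary markers moved with the groups: 6 of 6, the miR-200 family, miR-183-5p and miR-375-3p, had all GCI values above all sham values. Their summed level was 1081 to 4419.5 CPM in sham and 13759.6 to 32800.0 CPM in GCI libraries, with library 2 the lowest of the 3. Of the 5 blood markers, which summed to 449 to 519 and 452 to 672 CPM, miR-486a-5p had all GCI values above all sham values. The groups overlapped for the rest of this list, which went in both directions. Sham and GCI means were 300 and 266 CPM for miR-451a and 14.3 and 6.73 CPM for miR-223-3p. They were 21.8 and 22.3 CPM for miR-144-3p and 47.2 and 78.1 CPM for miR-142a-3p. Brain markers summed to 90804 to 107411 CPM in sham and 85083 to 95934 CPM in GCI libraries. Of the 5, miR-128-3p and miR-138-5p had all GCI values below all sham values. Among all 440 tested miRNAs, the groups did not overlap for 96 (21.8%). miR-128-3p stood at 7735, 8574 and 8171 CPM in sham and 4591, 7363 and 5627 CPM in GCI libraries (log2 fold change −0.48 ± 0.22, adjusted p = 0.294, edgeR, Benjamini-Hochberg). GCI library 2 was its highest of the 3, as for miR-466i-5p and miR-219a-5p. For miR-124-3p (16353, 12089 and 15747 CPM) and miR-138-5p (1450, 1148 and 1395 CPM) library 2 was the lowest of the 3. For miR-9-5p it lay between the others. The part of these lists in the level of miR-466i-5p was not tested.

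Of the 5p products of the Sfmbt2 intron, miR-467a-5p, miR-669c-5p and miR-467c-5p passed the filter on low counts, and none of them differed beyond the spread of the libraries. miR-467a-5p, whose counts could not be separated from those of miR-467b-5p, had 88.3, 89.7 and 78.3 CPM in sham and 74.3, 92.2 and 74.3 CPM in GCI libraries. The groups overlapped, with a log2 fold change of −0.09 ± 0.20. Its name belongs to 10 hairpins of the intron, and the tables list it 10 times with the same counts. miR-669c-5p, from 1 hairpin, stood at 71.5, 75.3 and 65.0 CPM in sham and 54.9, 66.1 and 77.7 CPM in GCI libraries. GCI libraries 1 and 3 lay on either side of all sham values, and the log2 fold change was −0.09 ± 0.21. miR-467c-5p averaged 17.0 ± 1.34 and 15.8 ± 2.26 CPM (SD, n = 3 each), a log2 fold change of −0.10 ± 0.25. The signs of the first 2 turned when 1 library was left out, GCI library 3 for miR-467a-5p, and Sham library 6 or GCI library 1 for miR-669c-5p.

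The 3p products of the intron had fold changes on either side of 0, none of which passed. The miR-466 set of 5 names (miR-466a-3p, miR-466b-3p, miR-466c-3p, miR-466e-3p and miR-466p-3p) had 21 to 33 counts per name and library. Its highest row, miR-466e-3p, stood at 16.2, 16.4 and 12.7 CPM in sham and 14.7, 18.7 and 15.9 CPM in GCI libraries, a log2 fold change of 0.13 ± 0.26. miR-467a-3p, with counts shared by miR-467d-3p, averaged 23.2 ± 4.19 and 26.0 ± 4.76 CPM, and its log2 fold change was 0.16 ± 0.26. miR-466d-3p averaged 15.1 ± 2.13 and 14.4 ± 4.32 CPM, a log2 fold change of −0.06 ± 0.31. miR-669a-3p, with the same counts as miR-669o-3p, spread from 6.91 to 21.0 CPM among the sham libraries, more widely than from 8.70 to 14.5 CPM among the GCI libraries. Its means were 14.1 ± 7.06 and 12.5 ± 3.29 CPM (SD, n = 3 each), its log2 fold change was −0.15 ± 0.41, and the groups overlapped. The signs of these last values turned with 1 library left out, Sham library 7 or GCI library 1 for miR-466d-3p, and Sham library 3 or GCI library 1 for miR-669a-3p.

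**Figure D3:**
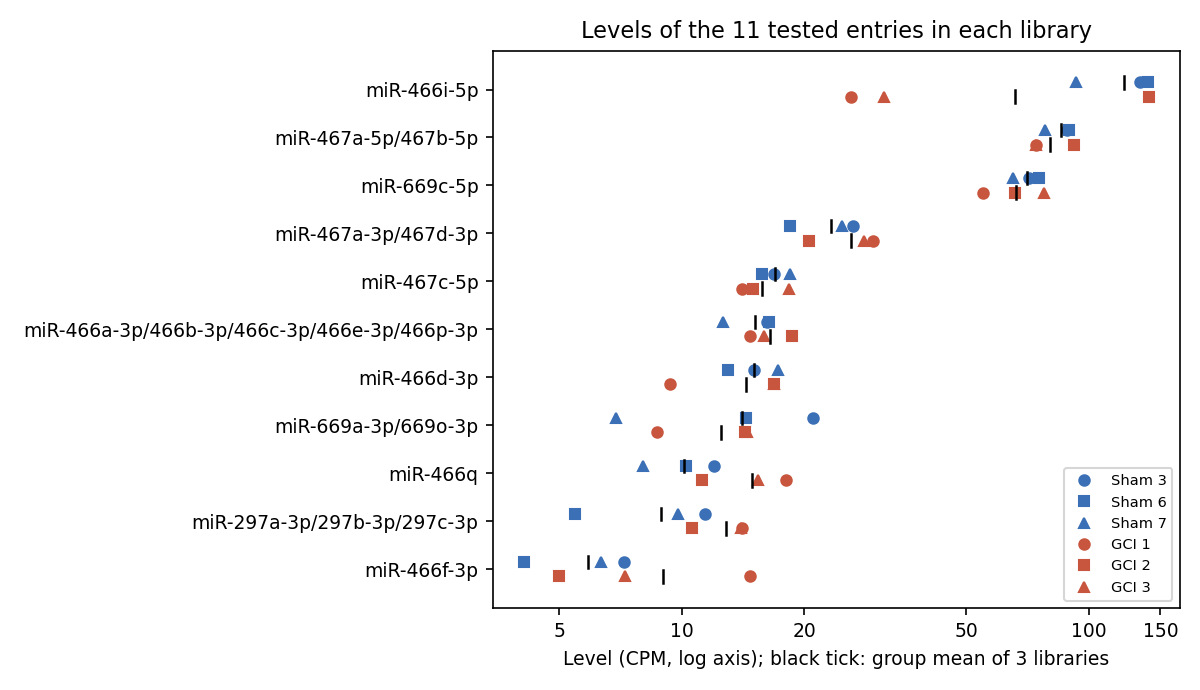
Levels of the 11 entries that passed the filter on low counts, in CPM on a log axis, with a point for each library (blue, Sham; red, GCI) and a black tick at each group mean. Names joined by a slash have near-equal counts and are drawn from the highest of them. The groups overlap in all 11 rows, and in miR-466i-5p GCI libraries 1 and 3 stand apart from the other 4 libraries.

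The highest positive values belonged to 3 entries, and none of them passed. miR-466q has its hairpin outside Sfmbt2, while the miR-297 set and miR-466f-3p have most of theirs inside. miR-466q, encoded in an intron of Tnik, had 12.01, 10.3 and 8.06 CPM in sham and 18.1, 11.2 and 15.4 CPM in GCI libraries. GCI libraries 1 and 3 lay above every sham value and GCI library 2 among them. Its log2 fold change was 0.56 ± 0.31 (adjusted p = 0.353, edgeR, Benjamini-Hochberg). The set of miR-297a-3p, miR-297b-3p and miR-297c-3p, with the same counts in every library, stood at 11.4, 5.48 and 9.78 CPM in sham and 14.1, 10.6 and 14.0 CPM in GCI libraries, with a log2 fold change of 0.52 ± 0.34 (adjusted p = 0.420, edgeR, Benjamini-Hochberg). In this set, too, GCI library 2 lay among the sham values. miR-466f-3p averaged 5.88 ± 1.599 and 8.98 ± 5.10 CPM, with 14.7 CPM in GCI library 1. Without that library its log2 fold change moved from 0.57 to 0.08.

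Counted over the family, 20 of the 42 names passed the filter on low counts, as 11 entries. edgeR called 0 of the 20, against 10 of all 440 tested miRNAs (2.27%), all 10 of them higher in GCI, and DESeq2 and limma-voom also called 0 of the 20, against 5.91% and 2.27% of all tested. At an unadjusted p under 0.05, edgeR gave 0 of the 20, against 74 of 440 (16.8%). limma-voom gave 1, miR-466i-5p, against 17.5% of all tested, and DESeq2 gave 0, against 17%. Other settings gave miR-466e-5p with no filter (background 14.1%), miR-669a-5p and miR-669p-5p with repeated rows summed (17.2%) or without Sham library 7 (12.1%), and these with miR-466i-5p and miR-466q without GCI library 2 (38.4%). The groups did not overlap for 0 of the 20, against 96 of 440 (21.8%). Log2 fold changes were below 0 for 8 of the 20 names, or 6 of the 11 entries, against 55.2% of all tested. The median was 0.14 over names and −0.06 over entries, against −0.05 over all tested miRNAs, and the sign differed because sets of 5 and 3 names with near-equal counts lay above 0. Standard errors of single members ran from 0.20 to 0.56, so that a missed threshold does not show that a member was unchanged.

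**Figure D4:**
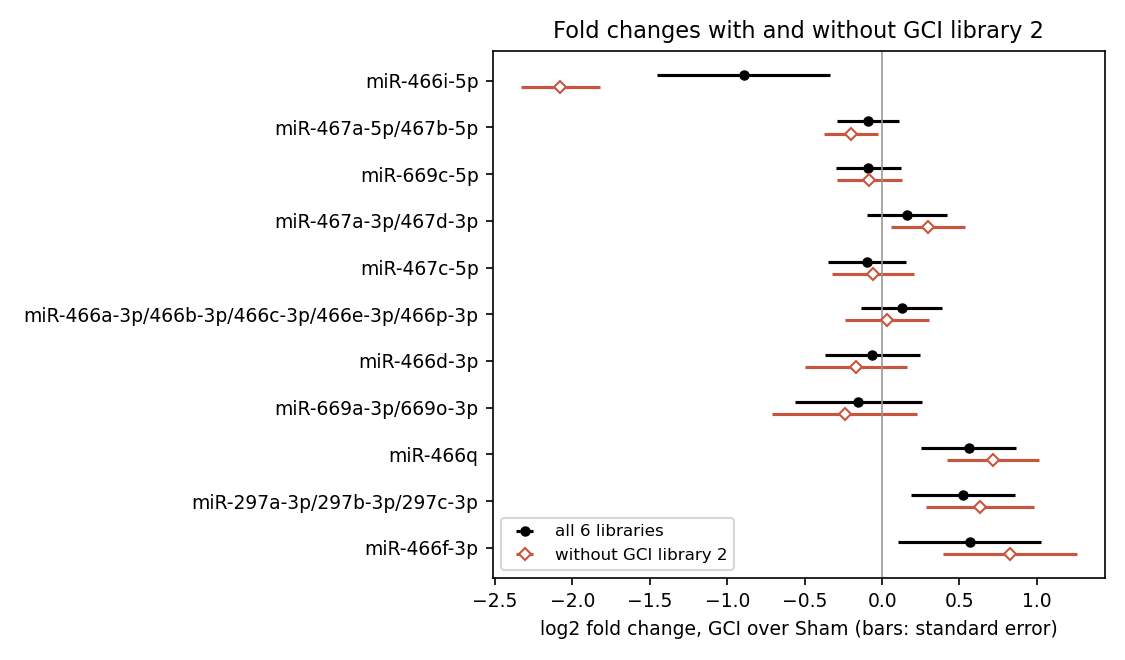
Log2 fold changes of the 11 tested entries, GCI over Sham, with standard errors as bars. Black circles use all 6 libraries and open red diamonds leave out GCI library 2. The 2 values differ most for miR-466i-5p, at −0.89 and −2.08.

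By subfamily and arm, the miR-467 sum was 129 to 148 CPM in sham and 129 to 134 CPM in GCI libraries. Its 5p part averaged 107 ± 6.10 and 101 ± 8.97 CPM and its 3p part 28.8 ± 8.87 and 30.4 ± 6.93 CPM (SD, n = 3 each). The miR-669 5p sum, most of it miR-669c-5p, averaged 90.1 ± 9.78 and 75.3 ± 15.9 CPM, and the miR-669 3p sum 23.9 ± 7.60 and 24.5 ± 4.39 CPM. The miR-466 5p sum averaged 131 ± 21.0 and 73.6 ± 62.2 CPM. With miR-466i-5p taken out, it was 8.86 ± 4.29 and 7.66 ± 2.83 CPM. The miR-466 3p sum was 45.1, 34.9 and 45.5 CPM in the sham and 50.2, 49.9 and 48.3 CPM in the GCI libraries. It lay higher in all 3 GCI libraries by a ratio of means of 1.18, as a description with no test. The other sums by subfamily and arm overlapped between groups, and so did each entry of this sum that passed the filter. The sum includes miR-466i-3p, encoded outside Sfmbt2. With only entries that have a hairpin in Sfmbt2, the ratio was 1.14. The miR-297 3p set made up the miR-297 sum.

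The other 22 names had 8 to 58 counts in all 6 libraries together and were too low for the filter. Among the 5p products, miR-669a-5p and miR-669p-5p, which shared their counts, had 13, 9 and 7 counts in sham and 2, 7 and 4 in GCI libraries. The lower 2 GCI libraries lay under all sham counts, and library 2 equalled the lowest of them. miR-669e-5p had 16, 7 and 12 counts in sham and 1, 8 and 9 in GCI libraries. Another 5p product, miR-466c-5p, had 7, 4 and 3 counts in sham and 3, 3 and 7 in GCI libraries, without a difference between groups beyond their spread. The 3p product miR-669f-3p had 8, 4 and 8 counts in sham and 9, 8 and 21 in GCI libraries, which after scaling put all GCI libraries (4.99 to 10.1 CPM) above all sham libraries (2.74 to 4.81 CPM). The 5p product miR-466e-5p had 1, 1 and 6 counts in sham and 0 in each GCI library. A count of 0 allows up to 3 counts, or 1.45 to 2.05 CPM at these depths, and 2 of the 3 sham counts of miR-466e-5p lay under that limit. Except for miR-669e-5p and miR-466c-5p, which the rule for named members takes, these were picked out after their values were seen. The rest of the 22 had 0 to 11 counts in any library.

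Both arms were listed for 12 hairpin names. Hairpins that shared the counts of an arm were joined, with each count used once, which left 9 sets. Over all libraries together, 4 sets had more 5p counts and 3 had more 3p counts, while the 95% Wilson intervals of miR-467e and miR-466h spanned 50%. These intervals cover only the counting error of the pooled counts. Single libraries spread more widely, but each holds fewer counts, so that counting error alone would widen their spread. For miR-669c the 5p arm held 691 counts and the 3p arm 12, a 5p share of 98.3% (97.0 to 99.0), and single libraries ran from 95.5% to 100%. For miR-467a it was 76.9% (74.2 to 79.3), with libraries from 71.6% to 82.9%. For miR-467c it was 91.2% (86.2 to 94.5), with libraries from 77.8% to 100%.

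For miR-466i the 5p share was 95.9% (94.5 to 97.0), with 97.8%, 100% and 94.7% in sham and 79.6%, 96.6% and 90.3% in GCI libraries. GCI libraries 1 and 3, where the 5p product was low, lay below all sham values. The 3p product had 5, 0 and 9 counts in sham and 10, 8 and 7 in GCI libraries. These shares thus largely restate the 5p counts given above and are not a separate result. The 5p products of miR-466b, miR-466c and miR-466e together had 52 counts against 158 of the 3p product whose counts they share, a 5p share of 24.8% (19.4 to 31.0). For miR-669a and miR-669p, whose 5p counts are the same, the 5p share was 20.9% (15.8 to 27.0). It was 23.6%, 25% and 31.8% in sham and 11.8%, 20% and 11.1% in GCI libraries, on 17 to 55 counts each. These ranges did not overlap, but the pair was picked out after its values were seen and no test was made. For miR-466a-3p and miR-466p-3p the counts were near-equal to the 158 used here, and for miR-669o-3p they equalled those of miR-669a-3p. miR-466a, miR-466p and miR-669o have no 5p name listed, so that reads from them may lower these 5p shares. Ligation efficiency can differ between end sequences, and its part in these shares was not tested.

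**Figure D5:**
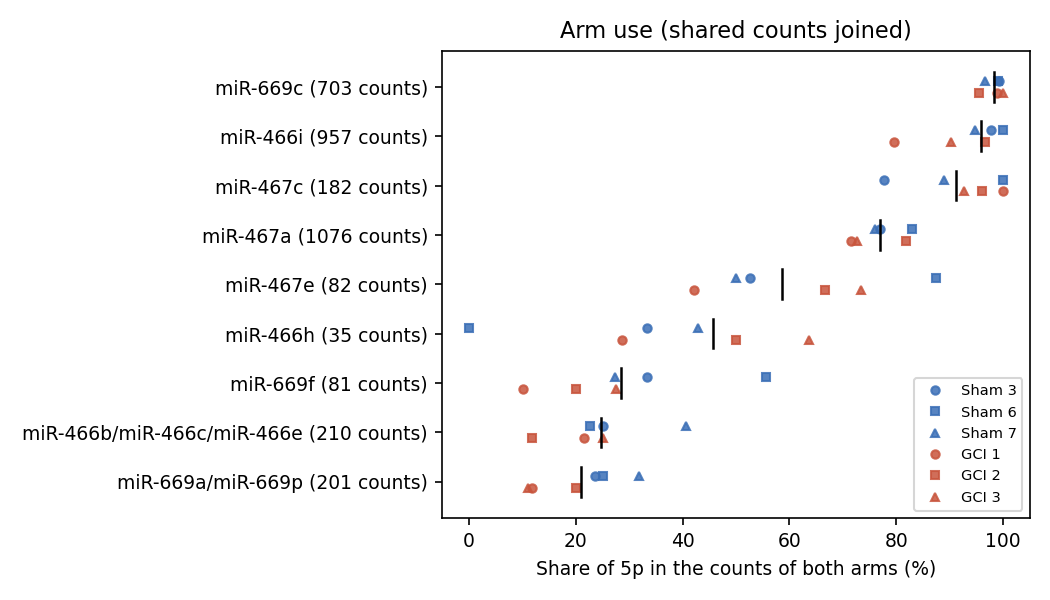
Share of the 5p arm in the counts of both arms (%, horizontal axis) for the 9 sets of hairpins with both arms listed, with a point for each library (blue, Sham; red, GCI) and a black tick for all 6 libraries together. The number in brackets is the sum of counts of both arms, and names joined by a slash share the counts of an arm. Pooled shares run from 20.9% in miR-669a and miR-669p to 98.3% in miR-669c.

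Another 6 miRNAs, listed as carrying UG repeats, were set beside the family, and 4 of them had counts. A pair of them is shown for their runs of alternating U and G, of 13 and 10 bases, with the seed in capitals (RefSeq, GRCm38.p6).
miR-574-5p: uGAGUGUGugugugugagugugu
miR-3082-5p: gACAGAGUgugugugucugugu
They are encoded at chr5:64970328-64970350 on the plus strand and chr17:25831406-25831427 on the minus strand. miR-574-5p had 12.6, 14.4 and 13.2 CPM in sham and 26.1, 15.0 and 16.9 CPM in GCI libraries. All 3 GCI values were above the sham values, where 21.8% of all tested miRNAs had groups that did not overlap. Its log2 fold change, 0.52 ± 0.29, missed the threshold (adjusted p = 0.367, edgeR, Benjamini-Hochberg). miR-3082-5p had 5, 8 and 7 counts in sham and 2, 3 and 1 in GCI libraries and was too low to test. miR-3470b, which holds no such run longer than 3 bases, stood at 75.7, 96.5 and 57.0 CPM in sham and 46.9, 119.7 and 57.9 CPM in GCI libraries. As with miR-466i-5p, GCI library 2 was the highest of all 6 and GCI library 1 the lowest. miR-3470a, for which no sequence was matched, had 10.2, 14.4 and 10.9 CPM in sham and 7.36, 21.2 and 7.24 CPM in GCI libraries. GCI library 2 was again the highest of the 6. Of the list, 0 of the 3 tested passed with edgeR after Benjamini-Hochberg adjustment, against 2.27% of all 440 tested miRNAs. At an unadjusted p under 0.05 it was also 0 of the 3, against 16.8%. With 3 members, these counts do not set the list apart.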

How the data were processed

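Small RNA libraries were made from 1 µg of total RNA with the NEBNext kit, per the labels' protocols, and sized for inserts of 15 to 35 nt. The submitters' processing notes name cutadapt and Bowtie. Their versions, the genome build, the miRNA reference and the handling of reads with several matches were left unstated in the sources used here. What the authors deposited are unnormalized counts, whole numbers for each mature miRNA name. The 104 family rows among 727 held 42 names. Of 12 repeated names, 9 had identical rows, and of each name the row with most counts in total was used. Near-equal names needed at least 30 counts in total to be joined. miR-466b-5p and miR-466o-5p held the same counts but had too few and stayed apart. No pair of libraries within a group agreed within sampling noise (lowest chi-square per degree of freedom 35.8).

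Counts were tested with edgeR 4.0.16 (quasi-likelihood, TMM, filterByExpr defaults, minimum count 10, minimum total 15) in R 4.3.3 over all 440 miRNAs that passed the filter. Benjamini-Hochberg adjustment and a threshold of 0.05 were used. The fit was also run on data simulated from its own fitted model, which cannot show how it treats an outlying library. The biological coefficient of variation was 25.3%. CPM are counts over TMM-scaled library sizes. Exact permutation tests were two-sided on log2(CPM + 1). Hairpins come from GENCODE vM21 by name, with miR-466a taken as Mir466. Members and lists were chosen with earlier results of these data known. The rule for named members takes those with a mean of at least 10 CPM, the 2 highest of each subfamily and arm, the 5 with the smallest p in each direction, and those whose groups do not overlap at 10 CPM. Of 8 stem cell markers, looked up by name, none was among the names with counts, so that none was analysed. Alternatives were other scalings (total counts, upper quartile, RLE), other filters, DESeq2 1.42.0, limma-voom (limma 3.58.1), robust estimation, the 5 most abundant miRNAs left out, repeated rows summed, near-equal names joined, and each library left out. Sums without miR-466i-5p were added after seeing the data.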

Additional observations from a re-analysis of the deposited data

How the results depend on the processing

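No paired analysis was possible because the groups share only the number 3. The count of family names called was 0 in every alternative except without GCI library 2, so that it ranged from 0 to 1 with single libraries left out. At an unadjusted p under 0.05 it was 1 without a filter (miR-466e-5p), 1 with limma-voom (miR-466i-5p), 2 with repeated rows summed (miR-669a-5p and miR-669p-5p, which that setting multiplies), and 0 to 4 with single libraries left out. Over all miRNAs 10 were called. That count was 4 with RLE size factors, 4 with the 5 most abundant left out, 26 with DESeq2, and 0 to 100 with single libraries left out; the cause was not tested. The 20 named members that were tested make up 11 entries, so that shared counts enter the next numbers several times. None of them passed in the main fit. Of 330 values of these 20 members under alternatives, 319 kept direction and side of the threshold, 1 passed newly and 10 changed sign, all with single libraries left out. In those, log2 fold changes ran from −0.20 to 0.021 for miR-467a-5p and from −0.20 to 0.016 for miR-467b-5p, from −0.16 to 0.043 for miR-669c-5p, from −0.17 to 0.17 for miR-466d-3p, and from −0.49 to 0.30 for miR-669a-3p and likewise for miR-669o-3p. The log2 ratio of the family's summed CPM, −0.20, ranged from −0.35 to −0.09 with single libraries left out and from −0.23 to −0.01 otherwise, and that of miR-466 moved from −0.39 to 0.25 without miR-466i-5p. Low counts limit which changes could be seen, since 22 names did not pass the filter.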
